A study of Mus musculus with 2 samples.

Results

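The 10 genes described here encode the carnitine shuttle and the core enzymes that break down straight-chain fatty acids in mitochondria: Cpt1a, Slc25a20, Cpt2, Acadvl, Acadl, Acadm, Acads, Hadha, Hadhb and Acaa2. They were taken by name from the 27962 gene names of the arrays, and all 10 were among the 16730 genes tested. Signal was measured in the liver of male apoE-KO mice on the C57BL/6 background. The controls ate normal chow, and the other group ate the same chow with 1.25% cholesterol (the high-Chol diet) for 1 week, starting at 10 weeks of age. Every mouse carried the apoE knockout, which by itself gives high plasma cholesterol, so neither diet group stands for a wild-type liver. There were 3 independent experiments, and so 3 arrays, per diet. The number of mice behind an array is not given in the sources used here, and p-values measure the spread between arrays.

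In mitochondrial beta-oxidation, a long-chain acyl-CoA is joined to carnitine by CPT1 on the outer membrane, carried through the inner membrane by the carnitine-acylcarnitine translocase, and turned back into acyl-CoA by CPT2. The acyl-CoA is then shortened in a repeated cycle of dehydrogenation, hydration, a further dehydrogenation and thiolysis, which yields acetyl-CoA for the citrate cycle and, in liver, for ketone bodies. CPT1A is the liver form of the step that malonyl-CoA inhibits, and it is widely taken as the point at which hepatic fatty acid oxidation is controlled. Many of these genes are targets of the nuclear receptor PPARα, with PGC-1α as a coactivator.

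Of the 10 genes, 9 had a lower mean log2 signal after the high-Chol diet, each signal being taken relative to the 75th percentile of its own array, in a comparison in which 52.2% of all genes tested were lower. None passed the adjusted threshold of 0.05 in limma, against 2.92% of all genes tested (0.227% as lower and 2.69% as higher). At an unadjusted p under 0.05, 3 members were lower and 0 higher (Cpt1a, Hadha and Acadvl), where 8.83% of all genes were lower and 12.3% higher; the methods' t-test gave 0 and 4 members at these thresholds. The median log2 difference of the members was -0.20, beside -0.02 over all genes. It was -0.33 without the high-Chol array of slide 1 (0.03 over all genes), -0.31 with array weights and -0.13 with slide as a block (-0.06 over all genes). In 4 members, Cpt1a, Hadha, Acadvl and Acaa2, all 3 high-Chol arrays lay below all 3 normal chow arrays. Over all genes measured on every array, 14% had no overlap in that direction and 25.8% in either. These directions are those of the scale of the 75th percentile used throughout. The members' median turned to 0.03 with a normexp background correction, under which 3 of the 10 members were lower and limma called 0 genes (306 at an unadjusted p under 0.05). Under that correction the median over all genes was -0.11, with 10473 of the 16730 genes lower, so the members lay above it and not below. With the arrays scaled to their median, by contrast, all 10 were lower, with a median of -0.43, beside -0.26 over all genes.

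Some facts of the arrays bear on all values. A log2 signal of 0 stands for the 75th percentile of an array's signals after background subtraction. All 3 normal chow arrays and 1 high-Chol array (high-Chol array 1) lay on the same slide (slide 1), and the other two high-Chol arrays lay on slide 2, where the 75th percentile was 762 and 799 against 271 to 373 on slide 1. With high-Chol array 1 left out, each diet lay on a slide of its own, so diet and slide cannot be told apart in that fit. A fit with slide as a block, which rests on the single high-Chol array that shared a slide with normal chow, called 0.0658% of genes. In it, 7 of the 10 members were lower (58.2% of all genes), and 1 of them, Cpt1a, was lower at an unadjusted p under 0.05 (3.45% of all genes). The share of spots well above background ran from 50.5% to 67.2%. The Apoe probe, over the disrupted gene, gave log2 signals of 3.31, 1.66 and 3.81 on normal chow against 3.20, 3.18 and 3.56 on the high-Chol diet, and with no wild-type array it gives no check of the knockout. Of 10 hepatocyte markers, 9 were on the array under their name, and all 9 were measured well enough to be tested. Their summed linear signal was 2480 to 2811 times the 75th percentile on normal chow against 1962 to 2182 on the high-Chol diet, while that of 10 macrophage markers was 154 to 183 and 393 to 532. The members' own sum, over the 9 of them measured on every array, was 715 to 830 on normal chow against 612 to 694 on the high-Chol diet. In whole liver, fewer cells of a type and less RNA per cell cannot be told apart, and the part of this shift between the marker lists in the members' differences was not tested.

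**Figure D1:**
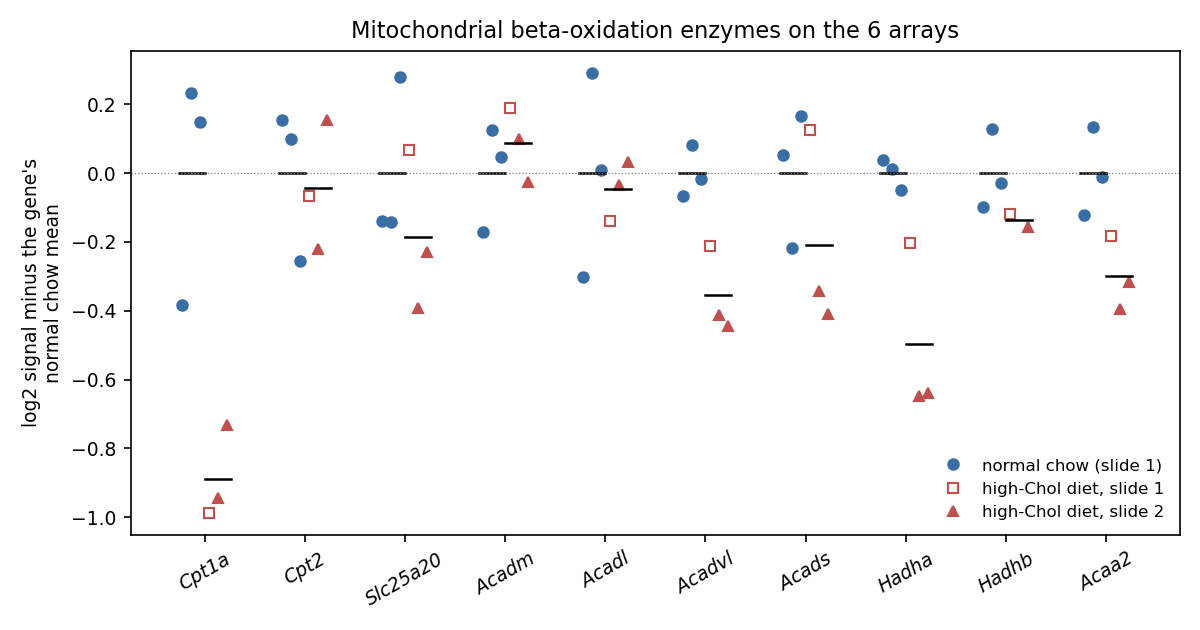
The log2 signal of each enzyme gene on each array, as the difference from that gene's normal chow mean (vertical axis, log2 units) for the 10 genes named on the horizontal axis. Circles are the 3 normal chow arrays, the open square is the high-Chol array of slide 1, triangles are the high-Chol arrays of slide 2 and black bars are group means; Cpt1a lies furthest below 0 on the high-Chol diet, Hadhb lacks 1 triangle, and only Acadm has a high-Chol mean above 0.

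Cpt1a had the largest difference of the 10. The gene is read by a pair of 60-base probes, both at 45.0% GC and on the plus strand of chromosome 19, at chr19:3280180-3280239 and chr19:3279435-3279494 in the mm7 positions of the array annotation, 745 bases apart. The first 30 bases of each are shown, in lower case, because the 2 probes are separate readings of the gene on which the result rests; whether they lie in the coding part or an untranslated part of the transcript was not annotated here.
A_51_P427674: tcttaggactacttgctaacctctgttact
A_52_P219753: cagttccattaagcaacaaaataacagatg

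The first probe, A_51_P427674, is printed on 10 spots of each array and stands for Cpt1a in the comparison. Its log2 signal was 4.48, 5.10 and 5.01 on normal chow against 3.88, 3.92 and 4.13 on the high-Chol diet, in the order of slide 1 and then slide 2. Every high-Chol array was thus below every normal chow array, the array of slide 1 being the lowest of them. The log2 difference was -0.89 (standard error 0.20, 95% interval -1.37 to -0.40), a 1.85-fold lower signal. The unadjusted p was 0.00337 and the adjusted p 0.0779 in limma. Only 1.93% of all genes tested had a lower difference, but the adjusted value did not pass the threshold. Over the 10 spots, the SD within an array was 0.075 to 0.14, beside an SD between arrays of 0.34 on normal chow and 0.14 with the high-Chol diet. The 10 spots are repeats of an array, not of the diet.

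The second probe, A_52_P219753, read 1.83, 2.09 and 2.25 on normal chow against 1.16, 0.40 and 0.49 on the high-Chol diet. Here too the groups did not overlap, but the lowest pair were the arrays of slide 2. Fitted with every probe by itself, it had a log2 difference of -1.38 (standard error 0.24) and an adjusted p of 0.0358 in limma, over 23917 probes of which 2.61% were called. Both probes thus gave a lower Cpt1a signal on the high-Chol diet, and the call depended on which probe stood for the gene. On the high-Chol array of slide 1 alone it was -0.90 from the normal chow mean, and its difference was -0.84 with a normexp background and -1.61 with median scaling. The mean of the 2 probes gave -1.13, with an adjusted p of 0.0307 in limma.

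The Cpt1a difference was below 0 in all 19 settings, the main fit included. Changing the filter, the variance prior or the test, or keeping outlier spots, left it at -0.89. Those settings could not change it, so they say nothing of its sign. Between scalings the difference ran from -0.57 with a normexp background to -1.12 with median scaling, and with 1 array left out it ran from -0.77 to -1.08. With slide as a block it was -0.99 (unadjusted p = 0.0136, adjusted p = 0.368 in limma). Its adjusted p in limma passed the threshold with median scaling (0.0431), with array weights (0.0216) and with a trended and robust variance prior (0.0377). Of all 16730 genes, these fits called 402, 2905 and 539. Over all settings that gave a p, the adjusted p of Cpt1a ran from 0.0216 to 0.9997, both in limma.

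Because a ratio of signals on the same array does not depend on the factor by which that array is scaled, Cpt1a was also set against the other members, a comparison chosen after the values had been seen. The log2 signal of Cpt1a minus the mean of the 8 other members with a value on all arrays was -0.44, 0.06 and 0.00 on normal chow against -1.06, -0.78 and -0.62 on the high-Chol diet. The groups did not overlap. The difference between the diets was -0.69 over all 6 arrays, -0.93 within slide 1, and -0.57 to -0.85 with any 1 array left out. Other backgrounds and scalings kept it between -0.64 and -0.70. The SD between arrays was 0.27 on normal chow against 0.22 on the high-Chol diet. Cpt1a was taken for this comparison as the member with the largest difference, so the values are a description, with no test.

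**Figure D2:**
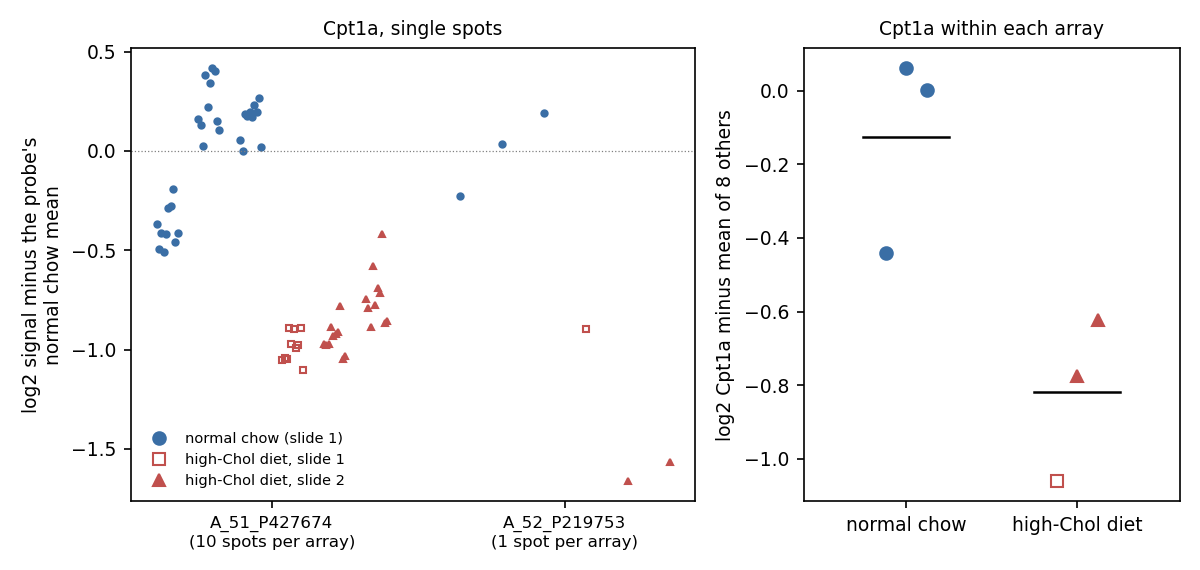
Left, log2 signal of the single spots of both Cpt1a probes as the difference from each probe's normal chow mean (vertical axis, log2 units; spots marked as outliers left out), array by array in the order normal chow and then high-Chol diet; right, Cpt1a minus the mean of 8 other enzyme genes on each array (vertical axis, log2 units), with black bars at the group means. In both probes and in the ratio, the high-Chol arrays (square and triangles) lie below the normal chow arrays (circles); of the single spots of A_51_P427674, the highest on the high-Chol diet reaches into the range of the lowest normal chow array.

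The 2 other parts of the shuttle had smaller differences. Slc25a20, the carnitine-acylcarnitine translocase, read 2.72, 2.71 and 3.14 on normal chow against 2.92, 2.46 and 2.63 on the high-Chol diet, and Cpt2, the inner membrane transferase, read 6.10, 6.05 and 5.69 against 5.88, 5.73 and 6.10. The groups overlapped for both genes. The log2 difference was -0.18 for Slc25a20 (95% interval -0.65 to 0.28, adjusted p = 0.591 in limma) and -0.04 for Cpt2 (95% interval -0.47 to 0.39, adjusted p = 0.901 in limma). Both signs turned under other settings. For Cpt2 the scalings spanned -0.28 to 0.24, and for Slc25a20 -0.42 to 0.05.

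The acyl-CoA dehydrogenases, which carry out the first step of each cycle, differ in the chain length they accept, and only the groups of the very-long-chain enzyme did not overlap. Acadvl, which encodes the very-long-chain acyl-CoA dehydrogenase, read 7.43, 7.58 and 7.48 on normal chow against 7.29, 7.09 and 7.05 on the high-Chol diet. All high-Chol arrays were lower, the array of slide 1 being the nearest to normal chow. Its difference was -0.36 (standard error 0.15, unadjusted p = 0.0451, adjusted p = 0.229 in limma), or -0.21 with slide as a block, and scalings moved it between -0.59 and -0.05.

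Acadm, the medium-chain acyl-CoA dehydrogenase, was the only member with a positive difference. It read 6.45, 6.74 and 6.66 on normal chow against 6.81, 6.72 and 6.59 on the high-Chol diet, which gives a difference of 0.09 (95% interval -0.28 to 0.45, adjusted p = 0.754 in limma). The difference became -0.15 with median scaling. Acadl, for long chains, read 2.90, 3.49 and 3.21 against 3.06, 3.17 and 3.24, and its difference was -0.05 (95% interval -0.49 to 0.40, adjusted p = 0.898 in limma). All 3 of its high-Chol values lay inside the range of the normal chow values. Acads, for short chains, read 3.25, 2.98 and 3.36 against 3.32, 2.86 and 2.79, a difference of -0.21 (95% interval -0.68 to 0.27, adjusted p = 0.552 in limma). In Acads the array of slide 1 was at the level of normal chow and the arrays of slide 2 were lower, so that the difference with slide as a block was 0.13.

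The remaining steps are carried out for long chains by the mitochondrial trifunctional protein, whose α subunit (Hadha) holds the hydratase and the hydroxyacyl-CoA dehydrogenase and whose β subunit (Hadhb) holds the thiolase. Hadha read 2.11, 2.08 and 2.02 on normal chow against 1.87, 1.42 and 1.43 on the high-Chol diet. The groups did not overlap, and the arrays of slide 2 were lower than the array of slide 1. The difference was -0.50 (standard error 0.17, unadjusted p = 0.0236, adjusted p = 0.183 in limma), a 1.41-fold lower signal, but with slide as a block it was -0.20 (unadjusted p = 0.287). With that array of slide 1 left out, the difference was -0.64, with an adjusted p of 0.0248 in limma. That fit called 3943 of 17773 genes. In it every high-Chol array lay on slide 2 and every normal chow array on slide 1, so diet and slide cannot be told apart. A further pair of Hadha probes was too dim to test, of which A_52_P658044 passed the software's background test on 2 arrays per diet and A_52_P338459 on none.

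Hadhb read 5.17, 5.40 and 5.24 on normal chow against 5.15 and 5.11 on the high-Chol diet. Its spot on the remaining high-Chol array, of slide 2, was marked as an outlier by the scanner software and was left out of the fit. The difference was -0.14 (95% interval -0.55 to 0.28, adjusted p = 0.651 in limma). With the marked spot kept, at 5.13, all 3 high-Chol values lay below the normal chow values, and 5 members in place of 4 were without overlap (4320 of 16731 over all genes, in either direction). Hadha minus Hadhb was then -3.06, -3.32 and -3.22 on normal chow against -3.28, -3.71 and -3.68 on the high-Chol diet. The groups overlapped, and the difference between the diets was -0.36 (exact two-sided permutation p = 0.2) and -0.09 within slide 1. The smallest p that this test can give with 3 arrays against 3 is 0.1, so it leaves unsettled whether the 2 subunits differ in their response.

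Acaa2, the mitochondrial 3-ketoacyl-CoA thiolase for medium and short chains, is read by a probe on 10 spots of each array. Its log2 signal was 8.39, 8.65 and 8.51 on normal chow against 8.33, 8.12 and 8.20 on the high-Chol diet. The lowest normal chow array and the highest high-Chol array differed by less than the spread within either diet, although no values overlapped. The difference was -0.30 (95% interval -0.65 to 0.06, adjusted p = 0.293 in limma), with an SD over the spots of an array of 0.038 to 0.091. It was -0.18 with slide as a block and 0.02 with a normexp background.

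**Figure D3:**
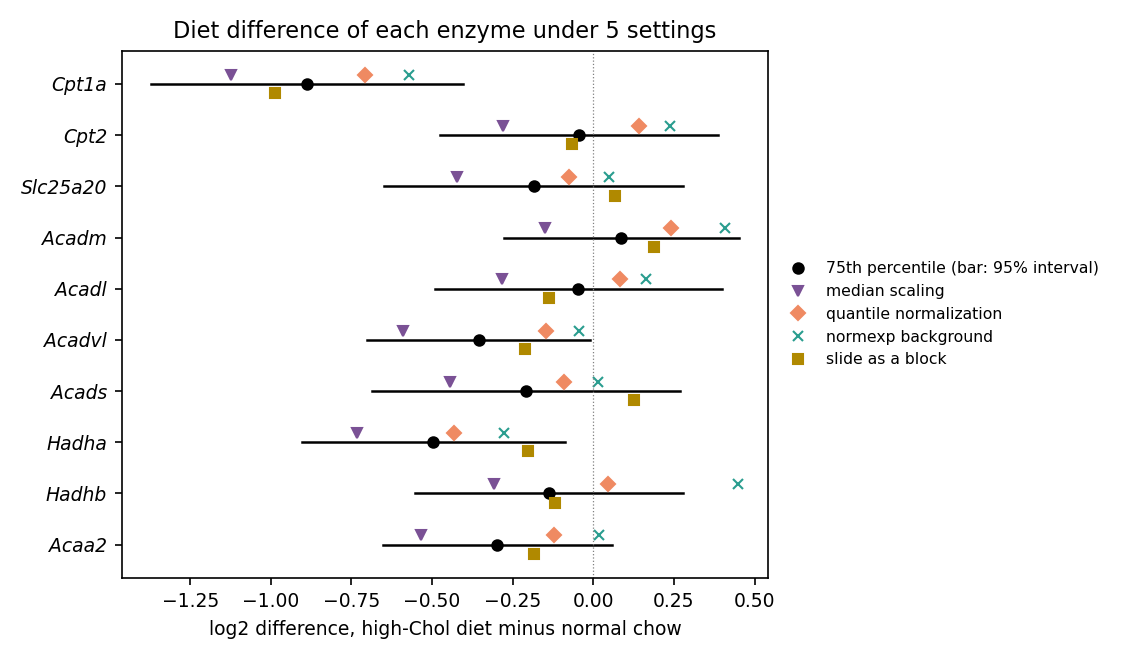
Log2 difference between the high-Chol diet and normal chow (horizontal axis) for each of the 10 enzyme genes (vertical axis) on the scale of the 75th percentile (black circles, bars are limma's 95% intervals) and with median scaling, quantile normalization, a normexp background or slide as a block. The symbols of Cpt1a, Acadvl and Hadha all lie below 0, and those of the other members lie on both sides of 0 or, for Acadm, mostly above it.

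The regions upstream of the start sites are shown for Cpt1a, with the lowest difference of the members, Acadm, with the only positive one, and the Hadha and Hadhb pair, whose start sites face away from each other and lie 273 bases apart on chromosome 5, so that nearly the same bases precede both. The sequences are the 250 bases before the start site from RefSeq (GRCm38.p6), 5′ to 3′ on the strand of the gene. They are Cpt1a at chr19:3323051-3323300 (plus), Acadm at chr3:153944644-153944893 (minus) and Hadhb at chr5:30155003-30155252 (plus). Capitals mark GGGCGG, the core of the binding site of SP1-type factors, and AGGTCA, the hexamer that nuclear receptors such as PPARα with RXR recognise in repeats, each on either strand.
Cpt1a: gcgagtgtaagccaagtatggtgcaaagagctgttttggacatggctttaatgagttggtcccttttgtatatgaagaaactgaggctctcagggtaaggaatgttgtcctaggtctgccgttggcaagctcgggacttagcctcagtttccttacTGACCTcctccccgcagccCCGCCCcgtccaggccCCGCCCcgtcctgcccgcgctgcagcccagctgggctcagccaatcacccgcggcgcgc
Acadm: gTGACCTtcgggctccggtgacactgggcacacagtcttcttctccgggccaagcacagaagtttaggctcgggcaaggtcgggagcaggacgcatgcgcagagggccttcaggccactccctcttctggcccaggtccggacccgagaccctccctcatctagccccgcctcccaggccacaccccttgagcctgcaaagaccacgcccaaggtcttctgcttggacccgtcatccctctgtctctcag
Hadhb: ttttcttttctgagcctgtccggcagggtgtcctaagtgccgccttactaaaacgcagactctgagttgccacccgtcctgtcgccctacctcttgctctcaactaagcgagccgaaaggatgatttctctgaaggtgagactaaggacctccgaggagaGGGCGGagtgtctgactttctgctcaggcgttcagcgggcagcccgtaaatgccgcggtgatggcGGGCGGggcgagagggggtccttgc

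The table held 9 of the 10 members and lacked Acaa2. On either strand, GGGCGG stood in 7 of the 9 windows and in 32.74% of the same windows of all 32851 promoters. The windows of Hadha and Hadhb overlap, and the match in Hadha is the same stretch as a match in Hadhb, so it was counted in both. AGGTCA stood in 3 of the 9 (Cpt1a, Acadm and Acadvl) and in 14.02% of all. Cpt1a and Acadm, at the opposite ends of the members' differences, thus both held the hexamer. The direct repeat AGGTCANAGGTCA (0.03% of all promoters) and TCAAGGTCA (0.39%), both of which contain the hexamer, stood in none of the 9, as did TATAAA (12.37%). CCAAT stood in 1, that of Cpt1a, and in 33.85% of all. The GC content of the members' windows was 49.6 to 68.0%, beside a median of 52.4% over all promoters. These are matches of letters in a short window and say nothing of whether a factor was bound.

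The other mitochondrial genes of the pathway, 16 in the list used and all tested, had a median log2 difference of -0.04 (0.17 with a normexp background), with 0 called in either direction in limma. With high-Chol array 1 left out 1 was called (3943 of 17773 over all genes), and with array weights 1 (2905 of 16730). Acsl1, the synthetase that activates long-chain fatty acids at the outer membrane, had a difference of -0.09, Hadh, the short-chain hydroxyacyl-CoA dehydrogenase, 0.02, and Echs1, the short-chain hydratase, -0.10. Etfb, a subunit of the electron carrier that takes electrons from the acyl-CoA dehydrogenases, had -0.37 (adjusted p = 0.249 in limma) without overlap between the diets, while its partner subunit Etfa had 0.00. Cpt1b, the muscle form of CPT1, was the only gene of this list with an unadjusted p under 0.05. It read -2.45, -2.21 and -2.00 on normal chow against -2.01, 0.53 and 0.39 on the high-Chol diet, which gives a difference of 1.86 (adjusted p = 0.182 in limma). The high-Chol array of slide 1 was at the level of normal chow, so the difference came from the arrays of slide 2.

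Peroxisomal beta-oxidation shortens very-long-chain and branched fatty acids before they pass to mitochondria. Of its 13 genes tested, limma called 0, and the median was -0.17 (0.06 with a normexp background). At an unadjusted p under 0.05, Ehhadh was higher and Decr2 lower. With high-Chol array 1 left out 1 was called (3943 of 17773 over all genes), and with array weights 1 (2905 of 16730). Ehhadh, the peroxisomal bifunctional enzyme, read 4.54, 4.84 and 5.23 on normal chow against 5.71, 5.78 and 5.44 on the high-Chol diet (difference 0.78, adjusted p = 0.123 in limma). Acaa1a, a thiolase, had a difference of -0.37 (adjusted p = 0.262 in limma) and Decr2, a dienoyl-CoA reductase, -0.59 (adjusted p = 0.192), both without overlap between the diets.

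Products of the pathway enter ketone body synthesis and the citrate cycle. The 4 ketone body genes had a median of -0.06 (0.21 with a normexp background) with 0 called (0 also at an unadjusted p under 0.05). Of the 18 citrate cycle genes, 16 were lower and 0 were called (3 lower at an unadjusted p under 0.05), with a median of -0.24. With high-Chol array 1 left out, 4 of 17 were called (3943 of 17773 over all genes) and the median was -0.41. With array weights 3 were called (2905 of 16730 over all genes). Ogdh, a subunit of the 2-oxoglutarate dehydrogenase complex, had a difference of -0.66 (adjusted p = 0.164 in limma). It read 1.33, 1.10 and 1.28 on normal chow against 1.00, 0.31 and 0.41 on the high-Chol diet, the same order of slides as in Hadha. In 8 of the 18 genes, the spot of at least 1 array of slide 2 was marked as an outlier and gave no value, and the citrate cycle median was -0.04 with slide as a block and 0.07 with a normexp background.

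Genes known as PPARα targets outside these pathways differed in direction. Of the 11 tested of 14 in the list, 1 was called: Creb3l3, a liver transcription factor that also controls fasting genes, which fell by 0.95 on the log2 scale (adjusted p = 0.0457 in limma). Its signals were 6.11, 6.07 and 6.12 on normal chow against 5.36, 4.82 and 5.28 on the high-Chol diet. The call was lost with slide as a block (-0.74, adjusted p = 0.414 in limma), with a normexp background, with quantile normalization, without a filter on dim probes (adjusted p = 0.189) and with the methods' t-test (adjusted p = 0.163). It was also lost without any 1 of the arrays other than the high-Chol array of slide 1, with differences of -1.01 to -0.78 and an adjusted p of 0.108 to 0.180 in limma. The list's median was 0.17, and 7 of the 11 were higher, but without normal chow array 1 the median was -0.21, with 8 of 13 tested lower. It was also below 0 with median scaling (-0.07), with array weights (-0.15) and in the authors' deposited values (-0.20). Pdk4, the kinase that turns off pyruvate dehydrogenase in fasting, read -1.58, -1.02 and -1.45 against 0.00, 0.44 and -0.96 (difference 1.18, adjusted p = 0.152 in limma). Cyp4a10 and Cyp4a14, the fatty acid ω-hydroxylases often used to read PPARα activity, had differences of 0.04 and 0.38 (adjusted p = 0.945 and 0.746), and their groups overlapped.

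Among 16 regulators of beta-oxidation, 15 were lower, 0 were called (4 lower at an unadjusted p under 0.05) and the median was -0.37. The number called was 1 with median scaling, 4 with array weights and 1 with high-Chol array 1 left out. Over all genes, these fits called 402 of 16730, 2905 of 16730 and 3943 of 17773. The median was also below 0 under each scaling, from -0.61 with median scaling to -0.17 with a normexp background. Ppara itself read 4.0, 4.65 and 4.54 on normal chow against 3.26, 3.23 and 3.89 on the high-Chol diet, which gives a difference of -0.94 (standard error 0.26, adjusted p = 0.121 in limma). In both Ppara and Cpt1a, the lowest normal chow value was that of position 1 and the highest high-Chol value that of position 3 on slide 2. Ppargc1b, which encodes the coactivator PGC-1β, had -1.0 (adjusted p = 0.10), and Rxra, the partner receptor of PPARα, -0.53 (adjusted p = 0.135), both without overlap. Ppargc1a, which encodes PGC-1α, had -0.18 (standard error 0.34, adjusted p = 0.778), and its groups overlapped. Lpin1, a phosphatidate phosphatase that also acts as a coactivator of PPARα, had -2.88 (adjusted p = 0.102). Acacb, whose product makes the malonyl-CoA that inhibits CPT1, had -0.69 (adjusted p = 0.281), and Mlycd, which removes it, -0.15 (adjusted p = 0.558).

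**Figure D4:**
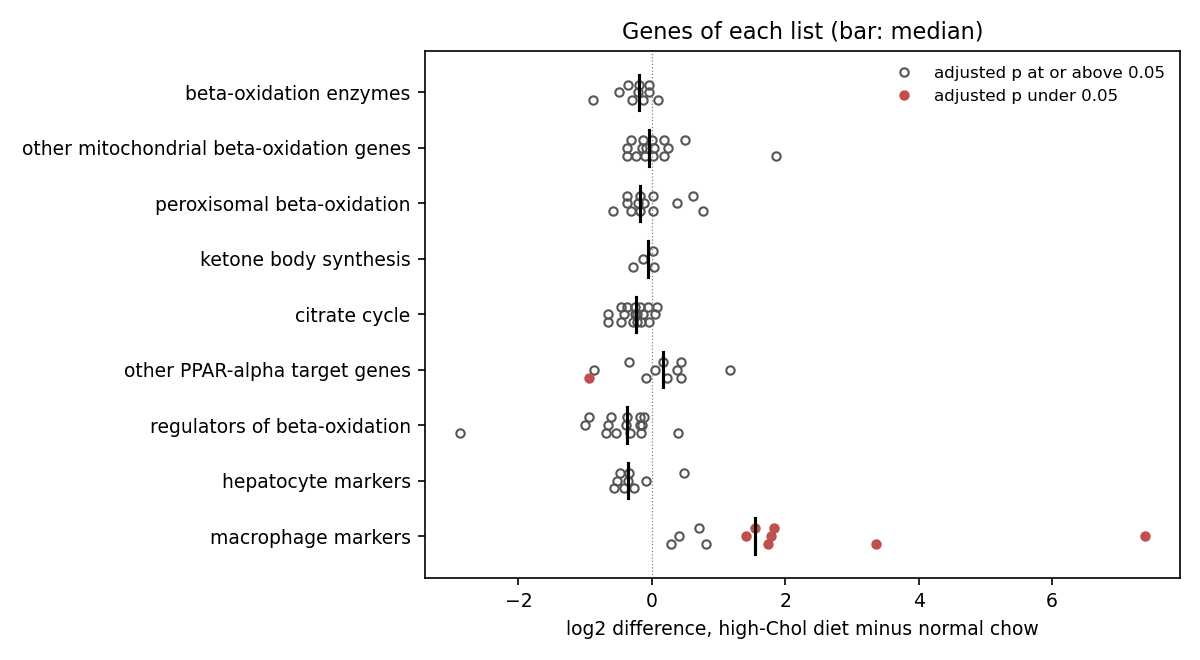
Log2 difference between the high-Chol diet and normal chow (horizontal axis) for the tested genes of 9 lists (rows), with a black bar at each list's median. Filled points have an adjusted p under 0.05 in limma: 7 macrophage markers, which were higher, and Creb3l3 among the other PPARα targets, which was lower; no gene of the beta-oxidation, ketone body, citrate cycle, regulator or hepatocyte rows is filled.

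The marker lists for the cell types of liver differed in direction beside these genes. Of 9 hepatocyte markers, 8 were lower and 0 called (at an unadjusted p under 0.05, 2 lower and 1 higher), with a median of -0.36. With high-Chol array 1 left out, 2 of them were called, as with array weights. Over all genes, these fits called 3943 of 17773 and 2905 of 16730. Of 11 macrophage markers tested, 11 were higher and 7 passed the threshold, with a median of 1.55, and of 4 neutrophil markers tested, 4 were higher and 2 passed, with a median of 2.54 (0.48 over 7 neutrophil markers, 2 of them lower, without a filter on dim probes). Asked to be well above background on each of the 6 arrays, 10 macrophage markers remained with 6 called and a median of 1.48, and 3 neutrophil markers with 2 called, so both counts include a marker that did not pass on all arrays of both diets. With slide as a block, 1 macrophage marker and 0 neutrophil markers were called, at medians of 1.32 and 1.73, and the macrophage count was 3 to 8 with 1 array left out, 1 without a filter on dim probes, and 0 under a normexp background and the methods' t-test. The neutrophil count was also 0 under these last settings, and 4 with high-Chol array 1 left out. The medians were 0.61 for 9 lymphocyte markers (-0.44 with a normexp background) and 0.13 for 6 endothelial markers (-0.10 with median scaling), with 0 called in each (3 and 1 higher at an unadjusted p under 0.05), and 0.07 for 10 stellate and bile duct markers (-0.17 with median scaling), with 1 called (Col1a1, 1.04, higher). That call was lost with slide as a block (adjusted p = 0.148 in limma), a normexp background, median scaling (0.80, adjusted p = 0.112), the mean of its probes (0.71, adjusted p = 0.0925), no filter on dim probes, the methods' t-test and 4 of the 6 arrays left out in turn (adjusted p = 0.0853 to 0.128). Of the 9 lymphocyte markers, 5 passed the background filter when it was asked of each of the 6 arrays, and 1 of these had an unadjusted p under 0.05. In limma, 4 of the 9 were called without the high-Chol array of slide 1 (3943 of 17773 over all genes) and 4 with array weights (2905 of 16730). The macrophage marker Itgam and 3 of the neutrophil markers were not well above background on all arrays of either diet.

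Over the 6 arrays, 5897 genes had values on all arrays, a signal well above background and an SD of at least 0.3. The profiles most like that of Cpt1a included those of Tor1b (Pearson's r = 0.990), Gpd1l (0.985), Cyp2d13 (0.984) and Ssh2 (0.984). The profiles most like the mean of the members were those of Aadac (0.998), Mrpl55 (0.998), Upb1 (0.996), Txndc4 (0.995) and Phf15 (0.995). The mean of the members itself, each centred on its own mean, was 0.03, 0.20 and 0.17 on normal chow against -0.02, -0.23 and -0.15 on the high-Chol diet. These are descriptions over 6 arrays that share slides and diets, with no test.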

How the data were processed

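Liver RNA was copied into Cy3-labeled cRNA and hybridized to 60-base probes on 1-colour Agilent whole mouse genome arrays, 3 per diet. The authors deposited the scanner output, in which the spot intensity had already been background-subtracted by Agilent Feature Extraction (9.1 in the submitters' processing notes; the file headers give 9.5 for slide 1 and 9.1 for slide 2) and was not normalized between arrays. The authors also deposited log2 values in a table, with a single value per probe for each diet, normalized and filtered in Gene Spring with settings not given in the sources used here. Regressed on the differences from the scanner output over 15980 genes, its differences gave a slope of 1.0 with an offset of -0.24. Its column medians were 0.00 for normal chow and -0.27 for the high-Chol diet, its direction was that of its diet labels, and its centring is unknown. It served as an alternative.

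The log2 of the processed signal minus that of the 75th percentile over the 43379 non-control spots of the array was used. Control spots (1639 per array) and outlier spots (75 to 196 per array) were left out, saturated spots (0 to 5 per array) were kept, and spots of a probe were averaged. A gene was kept when the software marked its probe as well above background on each of the 3 arrays of a diet, and its brightest probe by the mean over 6 arrays stood for it, which left 16730 genes. All 10 members passed on each of the 6 arrays and had RefSeq accessions that gave the same symbol. Diets were compared by limma (version 3.58.1, R version 4.3.3) with lmFit and eBayes and no covariate, with Benjamini-Hochberg adjustment over all genes and a threshold of 0.05. The ratio of Hadha to Hadhb was compared with an exact two-sided permutation test over arrays. Gene lists are described by counts and medians, with no set test.

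The members and gene lists were chosen with earlier results of these data known. Named genes are the members, genes of the lists, Apoe, and the 5 genes most alike in profile to Cpt1a and to the members' mean; some single genes are not reported here. The alternatives were a normexp background (offset 50), median scaling, quantile normalization, no filter and a filter for all 6 arrays, the mean of a gene's probes, every probe by itself, the methods' t-test, array weights, slide as a block, a trended and robust prior on the variance, each array left out, and the authors' deposited values. Keeping outlier spots and setting Cpt1a against the other members were chosen after seeing the data. The comparison of Hadha with Hadhb was not among the planned results either, and it rests on a kept outlier spot. In limma, lmFit and eBayes were also run on simulated data of 16438 genes, with 3 arrays per diet. Of 100 genes given a log2 change of 1, 27 were called, and of 100 given a change of 2, 77 were called. Positions of probes come from the array annotation (mm7), no genome sequence was used, and the promoter windows are those of RefSeq (GRCm38.p6). Figures were drawn with matplotlib 3.10.9. The number of arrays limits the precision. The study's RT-PCR, protein and lipid measurements were not analysed here.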

Additional observations from a re-analysis of the deposited data

How the results depend on the processing

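The count of genes called, 488, was 0 with a normexp background, 26 without a filter on dim probes, 11 with slide as a block, 2905 with array weights and 5 with the methods' t-test (2791 at an unadjusted p under 0.05), and 42 to 3943 with 1 array left out (42 when normal chow array 2 was left out and 3943 when high-Chol array 1, that of slide 1, was left out). The number of members called, 0, was 1 with median scaling, the mean of a gene's probes, every probe by itself and a trended and robust prior (Cpt1a in each), 2 with array weights (Cpt1a and Hadha), and 0 to 1 with 1 array left out (Hadha, when high-Chol array 1 was left out). Of 16730 genes, median scaling called 402, the mean of a gene's probes 495, the trended and robust prior 539 and array weights 2905. Every probe by itself called 625 of 23917 probes, and leaving out high-Chol array 1 called 3943 of 17773 genes. With a normexp background, 0 members were without overlap (769 of 16730 over all genes, in either direction), 3 were lower and their median was 0.033. The members' median was -0.43 with median scaling and -0.44 in the authors' deposited values. The sign of single members turned with a normexp background for Cpt2 (0.24), Slc25a20 (0.050), Acadl (0.16), Acads (0.014), Hadhb (0.45) and Acaa2 (0.016). It turned with median scaling for Acadm (-0.15), with quantile normalization for Cpt2 (0.14), Acadl (0.083) and Hadhb (0.045), with slide as a block for Slc25a20 (0.067) and Acads (0.13), and with array weights for Cpt2 (0.0058). With 1 array left out, Cpt2 ran from -0.17 to 0.044 and Acadl from -0.20 to 0.10.

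Among the other lists, a normexp background moved the median to 0.17 for the other mitochondrial genes, 0.062 for peroxisomal, 0.21 for ketone body and 0.069 for citrate cycle genes, -0.0099 for hepatocyte, 0.44 for neutrophil, -0.44 for lymphocyte and -0.22 for stellate and bile duct markers. Median scaling moved it to -0.28 for the other mitochondrial genes, -0.41 for peroxisomal and -0.29 for ketone body genes, and -0.60 for hepatocyte and -0.10 for endothelial markers. Quantile normalization moved it to -0.16 for hepatocyte markers. Slide as a block moved it to 1.73 for neutrophil, 0.045 for lymphocyte and 0.44 for stellate and bile duct markers. With 1 array left out, the neutrophil median ran from 2.34 to 2.95. Without normal chow array 2 the sign turned for the other mitochondrial (0.039), ketone body (0.028) and stellate and bile duct (-0.060) medians, and without high-Chol array 1 for the endothelial (-0.0057) and stellate and bile duct (-0.055) medians. The other mitochondrial and ketone body medians also turned under quantile normalization (0.069 and 0.10) and in the fit blocked on slide (0.021 and 0.023). The causes were not tested. The difference of Cpt1a from the other members, -0.69 over all 6 arrays, ran from -0.85 to -0.57 with 1 array left out. Other backgrounds and scalings, of which median scaling cannot change it, kept it between -0.70 and -0.64. Within slide 1 it was -0.93. No paired analysis was possible because the titles name replicates 1 to 3 for both diets, but no label or file header says which array bears which number. With 6 arrays, the 95% intervals of all members other than Cpt1a, Acadvl and Hadha took in 0.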
